A study of Brassica rapa with 12 samples.

Results

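A set of early genes of flavonoid synthesis was followed in *Brassica rapa* seedlings of the lines LP08 and Chiifu grown with or without light. The genes are 7 listed IDs of 42186 in the count tables: 3 copies of chalcone synthase (CHS; Bra008792, Bra006224 and Bra023441), chalcone isomerase (CHI; Bra007142), flavanone 3-hydroxylase (F3H; Bra036828), flavonoid 3'-hydroxylase (F3'H; Bra009312) and flavonol synthase 1 (FLS1; Bra009358). These names are those of the gene list, which calls them homologs. The files pair no ID with a name, and 0 of the 7 IDs were found in the RefSeq gene table used here, so the names could not be checked against an annotation.

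The 4 groups were LP08 seedlings in light, LP08 seedlings in dark, Chiifu seedlings in light and Chiifu seedlings in dark, with 3 RNA-seq libraries each. All seedlings were 1 week old and were harvested whole. The light groups were kept under a day of 16 h light and 8 h dark, the dark groups under 24 h darkness, and for how many days is not stated. Chiifu belongs to the Chinese cabbages. The study was built around vegetable and oilseed types of the species.

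Flavonoids are phenolic compounds that include the pale flavonols, which act as sunscreens, and the red to blue anthocyanins. CHS joins a phenylpropanoid unit to malonyl units, CHI closes the ring of the resulting chalcone, and F3H oxidizes the product to a dihydroflavonol. F3'H adds a hydroxyl group to the B ring, which sets quercetin and cyanidin types apart from kaempferol types, and FLS turns dihydroflavonols into flavonols. In Arabidopsis seedlings the genes for these steps are known to be induced by light through factors such as HY5 and MYB12.

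Library totals ranged from 48773088 to 71764062 counts. Levels are given as CPM, the usual unit of counts divided by the library total, which was scaled here with TMM (trimmed mean of M values). They are not divided by gene length, so they compare libraries and not genes. Replicates of a group correlated with each other across genes at a mean of 0.965 or more. The lowest value was that of Chiifu dark replicate 3, followed by LP08 light replicate 3 (0.972). LP08 light replicate 3 also had the highest CPM of its group for 6 of the 7 genes. The tissue label could not be checked against markers, because the IDs carry no names.

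All 3 CHS copies rose in light in both lines and had few reads or none in the dark. Bra023441 had 46.4, 44.3 and 56.7 CPM in light LP08, against 0.0780, 0 and 0.204 CPM in dark LP08. It had 11.4, 10.5 and 9.21 CPM in light Chiifu, against 0.174, 0.264 and 0.400 CPM in dark Chiifu. No light library overlapped a dark one, and each light LP08 library was above every light Chiifu library. The log2 fold change in light over dark was 9.06 (SE 0.49, edgeR adjusted p = 2.17e-08) in LP08 and 5.24 (SE 0.41, adjusted p = 4.16e-07) in Chiifu. The LP08 value was 10.3 without LP08 dark replicate 3, which held 10 of the 14 dark LP08 reads, and 8.44 without LP08 dark replicate 2. Only 51 of the 31239 tested features had a greater fold change in LP08, and 614 in Chiifu. In bulk seedlings, fewer cells that use a gene and less RNA per cell cannot be told apart.

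Bra008792 had 14.4, 14.3 and 18.5 CPM in light LP08, against 0, 0 and 0.0814 CPM in dark LP08. In light Chiifu it had 4.61, 4.65 and 4.64 CPM, against 0, 0.0588 and 0.200 CPM in dark Chiifu. It was higher in light than in dark in every library of both lines. The dark levels rested on 4 reads in LP08, all in replicate 3, and on 14 in Chiifu, 10 of them in replicate 3. With reads pooled by group, the ratio of light to dark was 616 in LP08 (exact 95% interval for counting error 240.2 to 2262) and 60.0 in Chiifu (35.6 to 110.1). The edgeR log2 fold change was 9.15 in LP08 (adjusted p = 3.9e-07) and 5.84 in Chiifu (adjusted p = 4.92e-06). Without LP08 dark replicate 3, dark LP08 had no read left and the fitted LP08 value, 12.9, depended on the prior count; without LP08 dark replicate 2 it was 8.55. The Chiifu value was 7.16 without Chiifu dark replicate 3 and 5.23 without Chiifu dark replicate 1.

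Bra006224 had 4.03, 4.11 and 3.89 CPM in light LP08 and no read in dark LP08, where a count of 0 in 3 libraries allows up to 0.0192 CPM (3 counts over the group, for counting error only). Against that floor it was at least 209.4-fold higher in light LP08 (edgeR adjusted p = 6.82e-07), and the lower end of the exact two-sided 95% interval of the pooled ratio was 169.8. In Chiifu it had 0.414, 0.796 and 0.386 CPM in light, against 0.0317, 0.0294 and 0 CPM in dark, a pooled ratio of 24.2 (exact interval 9.19 to 90.3). The edgeR log2 fold change in Chiifu was 4.48 (adjusted p = 6.08e-05). Light and dark libraries did not overlap in either line.

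The 3 copies can share sequence, and how reads that match several places were counted is not given in the sources used here, so the split between copies is uncertain. Their sum does not change with how reads are divided among the copies, but would miss any reads left out for matching several places, which was not tested. Summed CHS was at 64.8, 62.7 and 79.1 CPM in light LP08, against 0.0780, 0 and 0.285 CPM in dark LP08. It was at 16.4, 16.0 and 14.2 CPM in light Chiifu, against 0.206, 0.353 and 0.600 CPM in dark Chiifu. The sum was higher in light by a log2 fold change of 9.19 (95% interval 7.94 to 10.4, adjusted p = 6.7e-08) in LP08 and 5.36 (4.34 to 6.38, adjusted p = 1.23e-06) in Chiifu. The LP08 value was 10.8 without LP08 dark replicate 3 and 8.56 without LP08 dark replicate 2. From highest to lowest the order was light LP08, light Chiifu, dark Chiifu and dark LP08, and the ranges of the last pair overlapped.

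**Figure D1:**
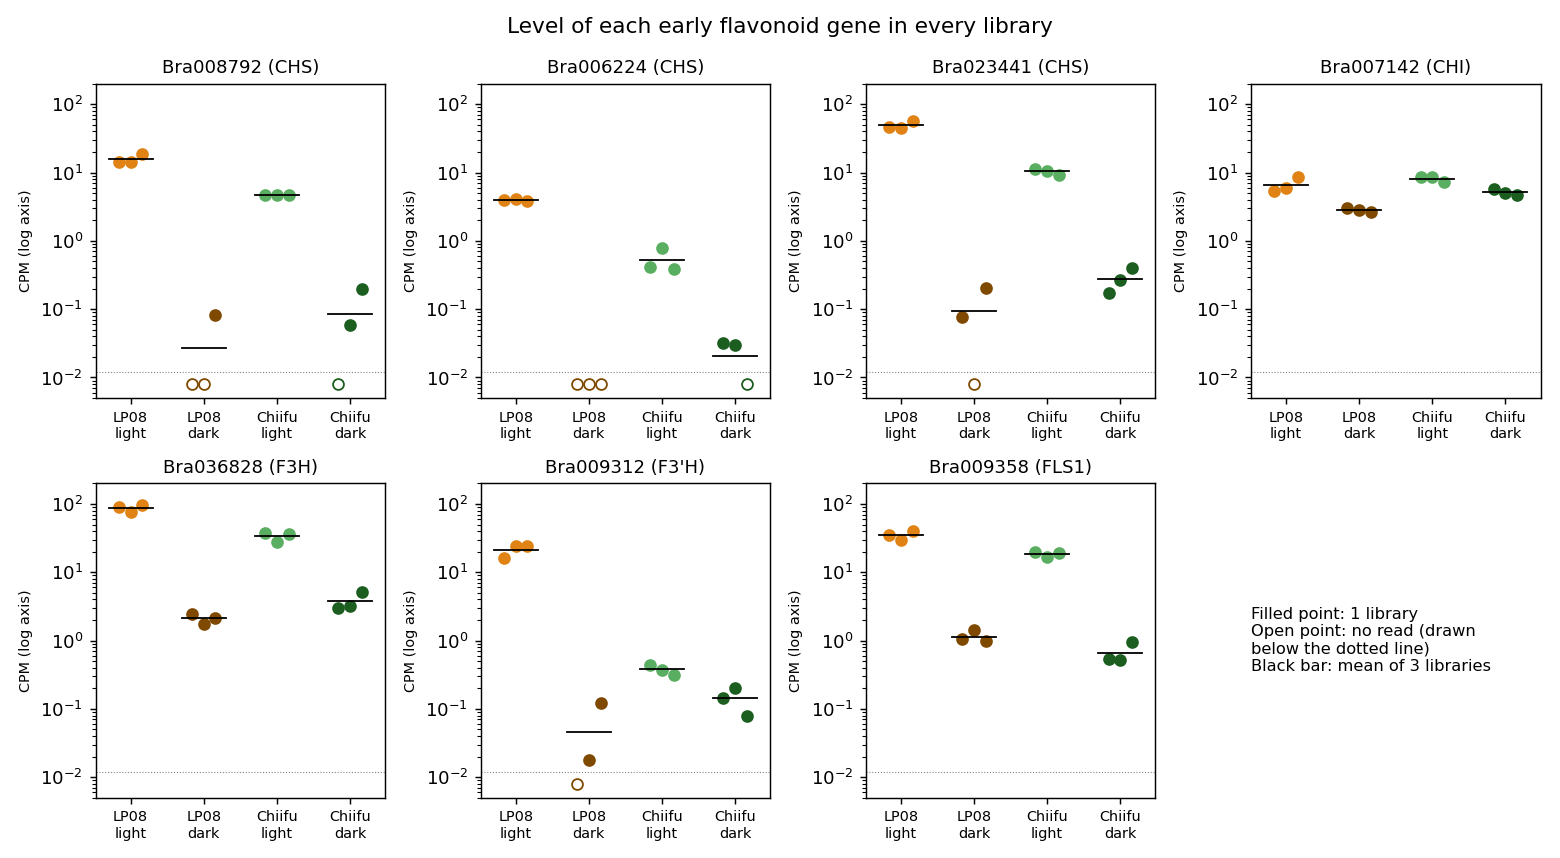
CPM of each gene in every library, on a log axis, by group; filled points are libraries, open points are libraries with no read, and bars are group means. The light libraries lie above the dark libraries of the same line for all 7 genes, and F3'H is at 16.0 to 24.1 CPM in light LP08, against 0.315 to 0.443 CPM in light Chiifu. The share of all tested features that separate light from dark libraries in this way was not counted.

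CHI rose in light by much smaller folds than CHS and F3H, the steps on either side of it. This is a result for the listed ID only, because any other copies could not be looked for. Bra007142 had 5.36, 5.86 and 8.65 CPM in light LP08, against 2.98, 2.79 and 2.65 CPM in dark LP08. It had 8.66, 8.46 and 7.17 CPM in light Chiifu, against 5.68, 5.04 and 4.64 CPM in dark Chiifu. Light and dark did not overlap in either line, but the light libraries of the 2 lines did. The fold in light over dark was 2.36 in LP08 (log2 1.24, SE 0.19, edgeR adjusted p = 0.000102) and 1.58 in Chiifu (log2 0.66, SE 0.19, adjusted p = 0.00752). Among the tested features, 7146 had a greater fold change in LP08 and 10517 in Chiifu. Between the lines in light, CHI did not pass the test, with a log2 fold change of -0.29 (LP08 over Chiifu, 95% interval -0.69 to 0.11, adjusted p = 0.222). Without LP08 light replicate 3 it was -0.53 and passed (adjusted p = 0.0272).

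F3H rose in light in both lines, and more in LP08. Bra036828 had 90.8, 75.9 and 95.7 CPM in light LP08, against 2.48, 1.73 and 2.12 CPM in dark LP08. It had 37.8, 27.7 and 36.2 CPM in light Chiifu, against 3.01, 3.19 and 5.18 CPM in dark Chiifu. The 4 groups did not overlap, and their order was light LP08, light Chiifu, dark Chiifu, dark LP08. The fold in light over dark was 41.5 in LP08 (log2 5.38, SE 0.25, edgeR adjusted p = 9.08e-09) and 8.96 in Chiifu (log2 3.16, SE 0.23, adjusted p = 2.11e-07).

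F3'H set the lines apart most. Bra009312 had 16.0, 24.1 and 24.1 CPM in light LP08, against 0, 0.0178 and 0.122 CPM in dark LP08. In light Chiifu it had 0.443, 0.377 and 0.315 CPM, which are 31, 27 and 22 reads, against 0.143, 0.206 and 0.0800 CPM in dark Chiifu. Light LP08 thus stood far above the other 3 groups, and the dark libraries of the lines overlapped. With reads pooled, the ratio of light to dark was 482 in LP08 (3422 against 7 reads, exact interval 233.7 to 1200, edgeR log2 fold change 8.83, adjusted p = 4.42e-08). LP08 dark replicate 3 held 6 of the 7 dark reads, and without it the log2 fold change was 10.9. In Chiifu the fold was 2.55 (log2 1.35, 95% interval 0.31 to 2.39, adjusted p = 0.0246). This Chiifu call was lost without Chiifu light replicate 1 (adjusted p = 0.072), without replicate 1 (0.0632) or 3 (0.0654) of dark Chiifu, and with limma-voom (0.0892), with an adjusted p of 0.00269 to 0.0892 over all alternatives. In light, LP08 was 56.3-fold above Chiifu (log2 5.82, SE 0.41, adjusted p = 4.39e-07).

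FLS1, the step toward flavonols, rose in light by a similar fold in both lines. Bra009358 had 35.1, 30.0 and 40.8 CPM in light LP08, against 1.05, 1.41 and 0.977 CPM in dark LP08. It had 19.5, 16.8 and 19.1 CPM in light Chiifu, against 0.538, 0.514 and 0.940 CPM in dark Chiifu. The groups did not overlap, and LP08 was above Chiifu in both treatments. The fold in light over dark was 30.7 in LP08 (log2 4.94, SE 0.24, edgeR adjusted p = 1.12e-08) and 28.2 in Chiifu (log2 4.82, SE 0.24, adjusted p = 1.64e-08).

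Over the list, 7 of 7 genes were called higher in light in LP08, where 33.1% of all tested features were (35.4% lower, 68.5% in either direction). Likewise 7 of 7 were called higher in light in Chiifu, where 33.9% of features were (33.6% lower, 67.5% in either direction). The median log2 fold change of the 7 was 8.83 in LP08, or 7.71 with Bra006224 at its bound, and 4.48 in Chiifu. Over all tested features the medians were -0.044 and 0. All 7 passed the filter on low counts, but Bra008792, Bra006224 and Bra009312 passed it through their light libraries and would not have passed on the dark ones, so their part in these counts was partly set by the filter. Bra023441, CHI, F3H and FLS1 would have passed on the dark libraries alone.

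**Figure D2:**
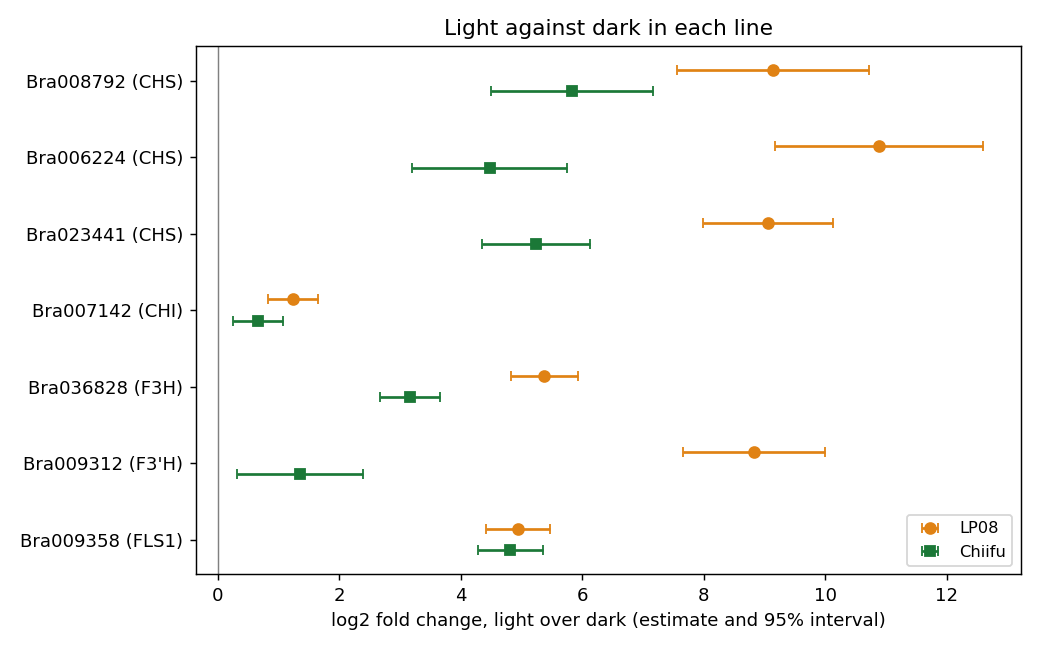
Fitted log2 fold change in light over dark for each gene, with 95% intervals, in LP08 (circles) and Chiifu (squares). The intervals of the lines are apart for the 3 CHS copies, F3H and F3'H and overlap for CHI and FLS1, though the test of the difference did not call Bra008792 (adjusted p = 0.0559); the LP08 value of Bra006224 depends on the prior count, because dark LP08 had no read.

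Whether the light response differed between the lines was tested as the difference of the 2 fold changes. The test called 4 of the 7 genes, all with a greater response in LP08, where 14.8% of all tested features were called in that direction, 14.4% in the other and 29.2% in either. Of the called genes, Bra006224 and F3'H passed the filter on low counts through their light libraries, as did the uncalled Bra008792. Their part in this count and in the median difference was thus partly set by the filter. The difference in log2 fold change (LP08 minus Chiifu) was 7.48 for F3'H (95% interval 5.77 to 9.19, edgeR adjusted p = 7.08e-05). It was 3.82 for CHS Bra023441 (2.37 to 5.27, adjusted p = 0.00166) and 2.21 for F3H (1.54 to 2.88, adjusted p = 0.000409). CHS Bra006224 was also called (adjusted p = 0.0109). Its fitted value depends on the prior count, and with dark LP08 set at 3 counts the difference was 3.11. For summed CHS the difference was 3.83 (2.22 to 5.44, adjusted p = 0.00303). Without LP08 dark replicate 3 the difference was 9.53 for F3'H, 5.05 for Bra023441 and 5.41 for summed CHS. Without LP08 dark replicate 2 it was 3.20 for Bra023441 and for summed CHS, and all of these were called.

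The other 3 genes did not pass. CHS Bra008792 had a difference of 3.31 with a wide interval (0.70 to 5.92, edgeR adjusted p = 0.0559). It was 1.99 without Chiifu dark replicate 3 and 2.71 without LP08 dark replicate 2. It passed without Chiifu dark replicate 1 (3.92, adjusted p = 0.0152), without LP08 dark replicate 3 (7.04, adjusted p = 0.0219) and in the DESeq2 test (adjusted p = 0.000582), and its adjusted p ran from 0.000582 to 0.333 over all alternatives. Without LP08 dark replicate 3, dark LP08 had no read of Bra008792, so the 7.04 depended on the prior count. CHI had a difference of 0.58 (-0.000564 to 1.16, adjusted p = 0.123). FLS1 had a difference of 0.12 (-0.57 to 0.82, adjusted p = 0.817), so a greater response of LP08 by more than 0.82 on the log2 scale lies outside its interval. The median difference was 3.31 for the 7 genes, or 3.11 with Bra006224 at 3 counts, against -0.010 for all tested features.

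In light, LP08 was above Chiifu for 6 of the 7 genes, where 21.4% of all tested features were called higher, 25.0% lower and 46.4% in either direction. Next to F3'H, the fold was 7.50 for CHS Bra006224 (log2 2.91, SE 0.38, edgeR adjusted p = 0.000165), 4.73 for CHS Bra023441 (log2 2.24, SE 0.32, adjusted p = 0.000135) and 3.40 for CHS Bra008792 (log2 1.76, SE 0.43, adjusted p = 0.00525). Summed CHS was 4.43-fold higher in light LP08 (log2 2.15, 95% interval 1.33 to 2.96, adjusted p = 0.00061). F3H was 2.58-fold higher (log2 1.37, SE 0.21, adjusted p = 0.000227) and FLS1 1.91-fold higher (log2 0.93, SE 0.20, adjusted p = 0.00232). CHI was the exception among the 7. None of the 6 calls was lost when any 1 library was left out. Whether reads of the 2 lines aligned equally well to the reference genome was not tested, here or in the dark.

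In the dark, 4 of the 7 genes were called between the lines, close to the 53.3% called among all tested features. F3H, which was higher in LP08 in light, was called lower in LP08 in the dark. The same held for CHS Bra023441, but on 14 against 49 reads and with overlapping libraries. That call was lost in 12 of 23 alternatives. CHI was lower in LP08 (log2 fold change -0.87, SE 0.19, edgeR adjusted p = 0.00234), and so was F3H (-0.84, SE 0.22, adjusted p = 0.00736). Both kept their call without any 1 library, and F3H was at -0.56 (adjusted p = 0.0208) without Chiifu dark replicate 3. FLS1 was higher in LP08 (0.81, SE 0.24, adjusted p = 0.0141), a call lost without LP08 dark replicate 2 (adjusted p = 0.0681), without replicate 1 (0.0597) or replicate 2 (0.0523) of dark Chiifu, and with limma-voom (0.0599). Over all its alternatives the adjusted p of FLS1 was 0.000752 to 0.119. In all, 3 of the 7 genes were called lower in dark LP08, where 27.9% of tested features were, and 1 higher, where 25.4% were (53.3% in either direction). The median of the 7 was -1.55, or -0.87 with Bra006224 at 3 counts, and that of all tested features was 0.

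The third call toward lower levels in dark LP08 was CHS Bra023441, with 14 reads in all in dark LP08 and 49 in dark Chiifu (log2 -1.58, edgeR adjusted p = 0.0432). This call was lost in 12 of 23 alternatives, with an adjusted p of 0.00211 to 0.168. Among left-out libraries it was lost without any 1 light library except LP08 light replicate 3, and without replicate 1 or 2 of dark LP08 or replicate 2 or 3 of dark Chiifu. It moved most without LP08 dark replicate 2 (-0.96) or 3 (-2.80). Bra008792 (4 against 14 reads, adjusted p = 0.268), Bra006224 (0 against 4 reads, adjusted p = 0.0622) and F3'H (7 against 27 reads, adjusted p = 0.066) did not pass. F3'H passed without Chiifu dark replicate 3 (adjusted p = 0.0423), without LP08 dark replicate 3 (0.00383) and in the DESeq2 test (0.019). Bra006224 passed without Chiifu dark replicate 3 (0.0288) or Chiifu light replicate 2 (0.0498). The dark LP08 reads of these genes lay mostly in LP08 dark replicate 3, which held 4 of 4, 10 of 14 and 6 of 7 of them for Bra008792, Bra023441 and F3'H.

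**Figure D3:**
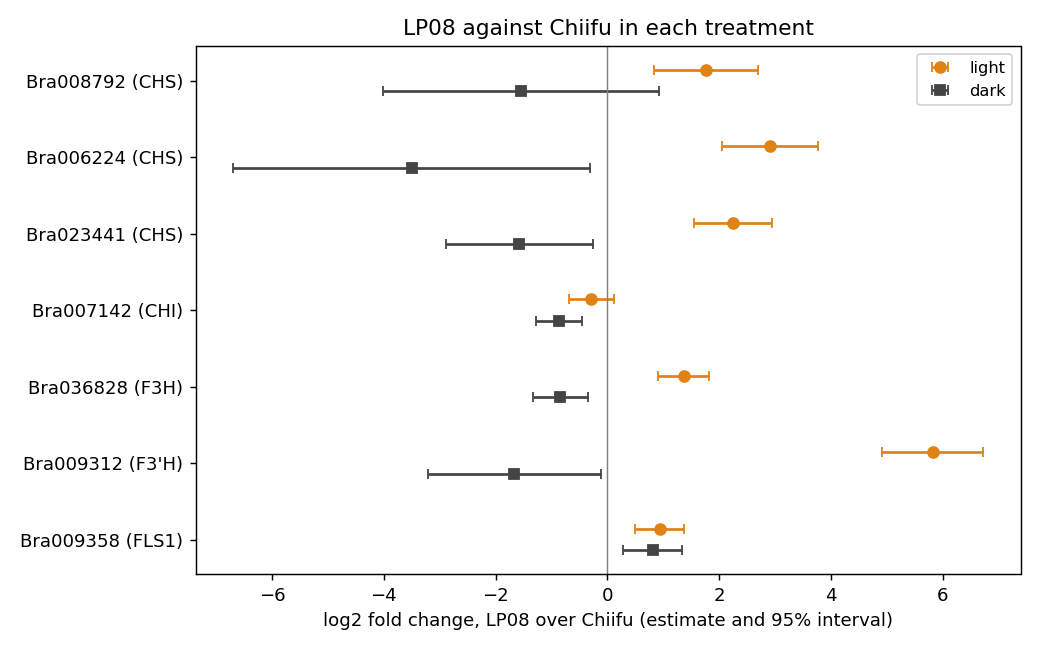
Fitted log2 fold change of LP08 over Chiifu for each gene, with 95% intervals, in light (circles) and in dark (squares). In light 6 genes lie to the right of 0 and CHI spans it, whereas in the dark FLS1 is the only gene with a positive value, at 0.81; the dark value of Bra006224 depends on the prior count.

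Ratios of counts between enzymes within a library do not depend on the scaling of libraries, and their differences do not depend on gene length. For CHI, F3H, F3'H and FLS1 they cover only the listed ID, whereas CHS is the sum of its listed copies. The log2 ratios of enzymes next to each other in the pathway and the shares of the 3 CHS copies were compared by light and by line. This made 14 exact two-sided permutation tests, in which labels were exchanged within the other factor. The ratio of CHI to summed CHS averaged -3.40 ± 0.20 in light LP08, against 5.52 ± 2.59 in dark LP08, and -0.94 ± 0.040 in light Chiifu, against 3.83 ± 0.90 in dark Chiifu (SD, n = 3 each). Every light library was below every dark one. The dark LP08 mean rests on 0 to 14 CHS reads a library, with 0.5 counts added. The mean difference of light minus dark was -6.84 (exact permutation p = 0.005, the smallest of the 400 arrangements, adjusted p = 0.035), seen in all 6 light libraries.

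The ratio of F3H to CHI averaged 3.75 ± 0.31 in light LP08, against -0.43 ± 0.23 in dark LP08, and 2.06 ± 0.32 in light Chiifu, against -0.47 ± 0.56 in dark Chiifu (SD, n = 3 each). Its difference of light minus dark was 3.35 (exact permutation p = 0.005, adjusted p = 0.035). By line, the mean difference of LP08 minus Chiifu was 0.87 (exact p = 0.05, adjusted p = 0.175), which did not pass. It was 1.69 in light and 0.046 in dark.

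For the ratios of F3'H and FLS1 to F3H, the difference between the lines in their response to light was not tested. The ratio of F3'H to F3H averaged -2.05 ± 0.43 in light LP08, against -6.01 ± 1.99 in dark LP08, and -6.46 ± 0.33 in light Chiifu, against -4.69 ± 1.02 in dark Chiifu (SD, n = 3 each). It was higher in light in every LP08 library and lower in light in every Chiifu library, so the mean over lines, 1.10, did not pass (exact permutation p = 0.375, adjusted p = 0.525). The dark values of this ratio rest on 0 to 6 F3'H reads a library in LP08 and 4 to 14 in Chiifu, with 0.5 counts added. The ratio of FLS1 to F3H averaged -1.31 ± 0.074 in light LP08, against -0.88 ± 0.51 in dark LP08, and -0.86 ± 0.13 in light Chiifu, against -2.51 ± 0.091 in dark Chiifu. Here light was below dark in LP08, with the nearest libraries almost level (-1.228 in light and -1.226 in dark), and above dark in Chiifu. The LP08 difference was -0.44, and -0.15 without LP08 dark replicate 2. Its mean difference of light minus dark was 0.61 (exact permutation p = 0.1, adjusted p = 0.268). Within 1 line, 3 libraries against 3 cannot give an exact two-sided p below 0.1.

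**Figure D4:**
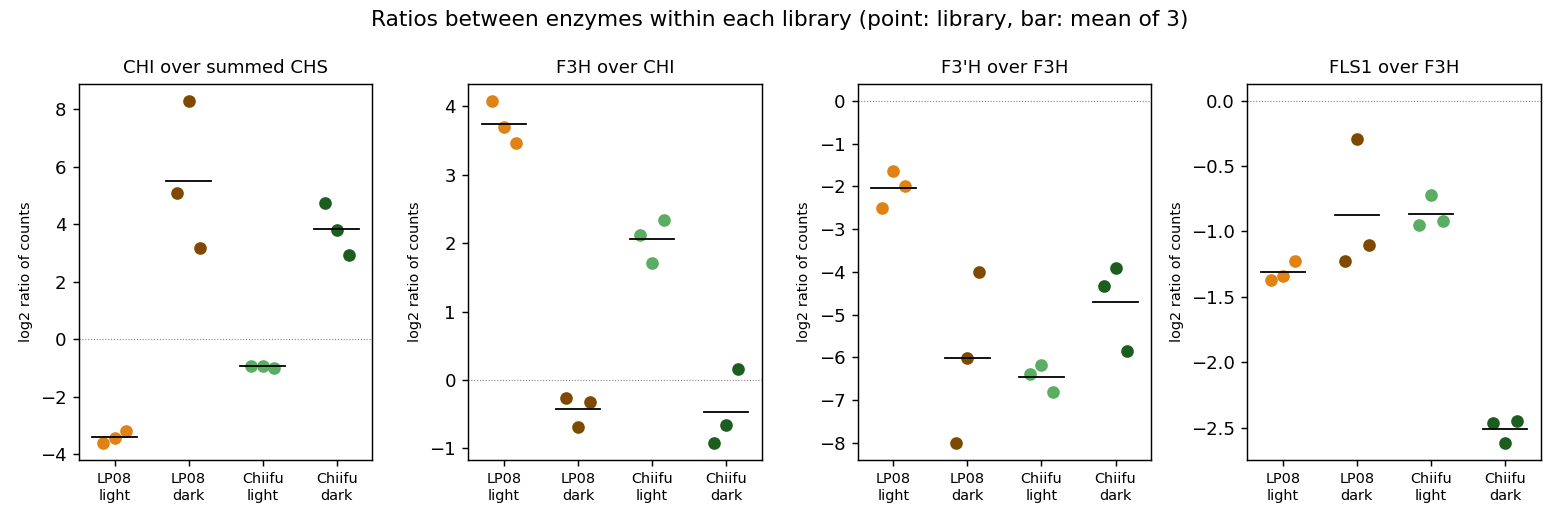
Log2 ratio of counts between enzymes in each library, by group; points are libraries and bars are means of 3. CHI over summed CHS is at -3.59 to -0.917 in light libraries and 2.93 to 8.30 in dark ones, and F3'H over F3H is highest in light LP08, at -2.51 to -1.65.

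Shares of the CHS copies are shares of counts and not per length. Bra023441 gave 71.3 ± 0.57% of summed CHS counts in light LP08 and 66.7 ± 2.45% in light Chiifu (SD, n = 3 each). Bra008792 gave 22.8 ± 0.59% in light LP08 and 29.9 ± 2.37% in light Chiifu, and Bra006224 gave 5.89 ± 0.86% in light LP08 and 3.40 ± 1.37% in light Chiifu. The ranges of the lines did not overlap for Bra008792 (22.2 to 23.4% in light LP08, 28.04 to 32.6% in light Chiifu) or Bra023441, and overlapped for Bra006224 (4.92 to 6.56% in light LP08, 2.52 to 4.98% in light Chiifu). None of the 6 tests of the shares passed (smallest exact permutation p = 0.035, adjusted p = 0.163, for Bra023441 by light). In the dark the shares rested on 0 to 14 CHS reads a library in LP08 and 13 to 30 in Chiifu, and LP08 dark replicate 2, with no CHS read, was left out of these tests.

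**Figure D5:**
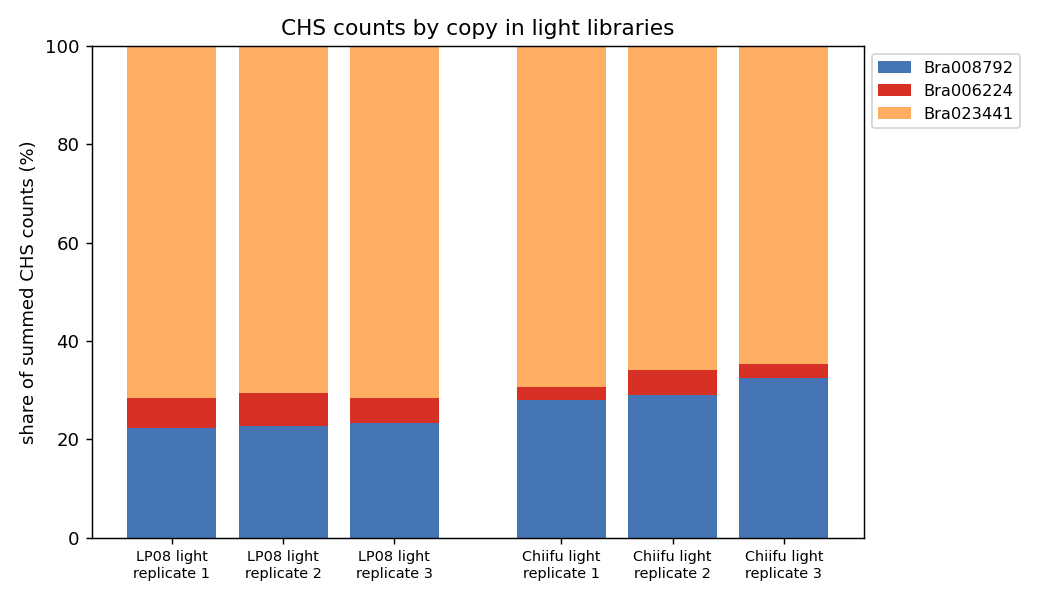
Share of summed CHS counts from each copy in the 6 light libraries, in percent; each bar is 1 library. Bra023441 holds 64.7 to 71.7% of the counts in every library, and Bra008792 holds less in these LP08 libraries than in these Chiifu ones. Over both treatments the share of Bra008792 by line did not pass (exact permutation p = 0.51, adjusted p = 0.595). The split of reads between copies is uncertain.

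Across the 12 libraries, the log2 CPM of Bra023441 correlated with that of F3H at Pearson's r = 0.989 and with that of Bra008792 at 0.987. Among 31238 other features these were the 11th and 24th highest correlations of Bra023441. Those with Bra006224, FLS1, F3'H and CHI ranked 792nd, 1605th, 3647th and 5982nd. CHI stood apart, with r of 0.551 (with F3'H) to 0.782 (with Bra023441), and none of the other 6 genes ranked above 4130th among the features most like it. These correlations describe the 4 groups, which set most of the spread, and share libraries and scaling. Deviations from the group means correlated between genes at -0.819 (Bra006224 with F3H) to 0.722 (Bra008792 with Bra023441). The 2 features most like the mean profile of the 7 genes were Bra016908 (r = 0.998) and Bra027008 (r = 0.996), for which the files give no name. Bra016908 had 182 ± 15.7 CPM in light LP08, against 0.361 ± 0.095 in dark LP08, and 32.1 ± 4.25 in light Chiifu, against 1.20 ± 0.28 in dark Chiifu (SD, n = 3 each). Bra027008 had 75.9 ± 12 CPM in light LP08, against 4.78 ± 0.73 in dark LP08, and 35.5 ± 4.21 in light Chiifu, against 8.39 ± 0.44 in dark Chiifu. Ranked by Spearman's rho they were 7th and 165th.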

How the data were processed

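The deposited files hold 1 table of raw read counts per library, which the authors did not normalize. Per the labels' protocols, RNA of whole seedlings was made into stranded mRNA libraries. Tools listed, per the submitters' processing notes and with no version, are TopHat2, FastQC, edgeR and featureCounts. Build, annotation, strand and multi-mapping settings were not given in the sources used here.

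Features were filtered by group (filterByExpr, minimum count 10, minimum total 15), which left 31239. The 12 libraries were scaled by TMM and tested in R 4.3.3 with the robust quasi-likelihood F-test of edgeR 4.0.16, with 1 mean per group. P-values were adjusted by Benjamini-Hochberg over all tested features and called under 0.05. Standard errors and intervals are those implied by the F statistic. The procedure was tested on simulated data. The simulation changed few genes by small known folds, away from low counts, so it does not cover genes with few or no dark reads. Log2 ratios had 0.5 counts added. DESeq2 1.42.0 and limma-voom 3.58.1 were alternatives.

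The 7 genes and the tests were chosen with earlier results of these data known. Besides the 7, the rule names the 2 features with the most similar profile. The other genes of the pathway could not be joined to the IDs, and none is given. Whether replicates came from separate cultures is not labelled, and p-values cover only the spread among these libraries, which may be technical. Replicates differed by more than counting noise (chi-square per degree of freedom 13.7 or more). The 95% intervals of pooled reads cover counting error only.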

Additional observations from a re-analysis of the deposited data

Results flagged for a closer look

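The light response differed between the lines in the test of the difference itself for 4 genes, with log2 differences (LP08 minus Chiifu) of 7.48 for F3'H, 6.41 for CHS Bra006224 (a fitted value against no read in dark LP08), 3.82 for CHS Bra023441 and 2.21 for F3H, and of 3.83 for summed CHS. Of these, F3'H and Bra006224 passed the filter on low counts through their light libraries and would not have passed on the dark ones.

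Ratios within libraries moved in opposite directions in every library of the groups compared, and these differences between groups were not tested. The log2 ratio of F3'H to F3H differed by 3.96 in light minus dark LP08 and by -1.76 in light minus dark Chiifu. Its dark values rest on 0 to 6 F3'H reads a library in LP08 and 4 to 14 in Chiifu, with 0.5 counts added. With 1 library left out, the difference ran from 2.97 to 4.96 in LP08 and from -2.34 to -1.37 in Chiifu. The log2 ratio of FLS1 to F3H differed by -0.44 in light minus dark LP08 and by 1.65 in light minus dark Chiifu. The first of these was -0.15 without LP08 dark replicate 2. Seen by line, it differed by -0.45 in light LP08 minus light Chiifu and by 1.63 in dark LP08 minus dark Chiifu.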

How the results depend on the processing

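Of the 35 fold changes of single genes, 28 stayed on the same side of the threshold under every alternative, up to 23 each, and the 7 that did not are described with their values above. No called value changed sign. The difference in light response of FLS1, not called, was 0.12 and ran from -0.31 to 0.30. Dividing by library totals moved the median of all features to -0.24 in light against dark LP08 (-0.044 with TMM), -0.10 in light against dark Chiifu (0 with TMM) and -0.19 between the lines in light (-0.015 with TMM), and changed no call of the 7 genes. Differences in the dark were limited by depth, at 0 to 20 reads a library for the CHS copies and F3'H. The genes lower in light LP08 than in light Chiifu numbered 0 to 1 over left-out libraries and 1 (CHI) without both Chiifu dark replicate 3 and LP08 light replicate 3. The genes higher in dark LP08 numbered 0 to 1 over left-out libraries, 0 with limma-voom and 0 with only the dark libraries in the fit. With only these, Bra008792, Bra006224 and F3'H failed the filter.

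Summed CHS in dark LP08 against dark Chiifu was called at a log2 fold change of -1.68 (edgeR adjusted p = 0.0473). It lost the call without a filter (-1.68, adjusted p = 0.0581), with the replicate block (-1.70, 0.0513), with only the dark libraries (-1.72, 0.17), without both named libraries (-1.27, 0.145) and in 10 of 12 fits that left out 1 library. Over all 12 it ran from -3.26, without LP08 dark replicate 3 and still called (adjusted p = 0.00342), to -1.06, without LP08 dark replicate 2 (0.112). The labels only number the replicates, so the numbers were not taken as a pairing. Deviations of same-numbered libraries from their group means correlated at -0.25 to 0.298, with 8 of 18 pairs above 0.1. Differently numbered pairs were not compared, so this cannot show whether the numbers mark a pairing. The replicate block ended 1 other call, that of Bra023441 in the same comparison (-1.60, 0.0547).

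Without both named libraries, fewer arrangements remained, and the light difference of CHI over summed CHS (-7.12) and of F3H over CHI (3.58) had an adjusted exact permutation p of 0.07. Ratios within 1 line or 1 treatment without each library were added after seeing the data. Of these, FLS1 over F3H in light minus dark LP08 ran from -0.61 to -0.15, CHI over summed CHS in dark LP08 minus dark Chiifu reached 0.31 without LP08 dark replicate 2, and F3'H over F3H there reached -0.32 without LP08 dark replicate 1. Within LP08 and within Chiifu alone, light minus dark was -8.92 and -4.77 for CHI over summed CHS, 4.17 and 2.53 for F3H over CHI, 3.96 and -1.76 for F3'H over F3H, and -0.44 and 1.65 for FLS1 over F3H. Within light and within dark alone, LP08 minus Chiifu was -2.46 and 1.70, 1.69 and 0.046, 4.41 and -1.31, and -0.45 and 1.63 for the same ratios. The share of Bra006224 was 5.89 percentage points higher in light than in dark LP08. In dark LP08 it was 0 in 2 libraries with 4 and 14 CHS reads, too few to show a difference. Its test by light over both lines did not pass (exact permutation p = 0.82). In light, LP08 minus Chiifu was -7.09 points for Bra008792, 2.49 for Bra006224 and 4.596 for Bra023441.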
